A study of Mus musculus with 12 samples.

Results

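The genes described here are 58 listed genes of mouse chromosome 14, a set drawn up after genes of that chromosome were seen to be lower in the knockout cells of this study. A gene was measured when the array annotation gave it a probe set of its own (a group of probes summarised to 1 value) whose log2 level averaged 6 or more over the 12 arrays. Where a gene had several such probe sets, the one with the highest mean was used. Of the 58 genes, 45 were measured, out of 342 chromosome 14 genes at that level and 22180 genes with a probe set of their own on the array. RefSeq placed all 45 on chromosome 14. Another 8 had a mean below 6, 4 (Apex1, Esd, Mettl3 and Bnip3l) had only probe sets shared with a second symbol, and Tep1 had no listed probe set. Diap3 was found under its present symbol, Diaph3. Just inside the level limit lay Anxa8 at a mean of 6.31 and Lgals3 at 6.51. Just outside it lay Fzd3 at 5.92 and Tbc1d4 at 5.89.

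The cells were mouse embryonic stem (ES) cells of line K3, in 3 groups of 4 arrays. Arrays labelled KO/ERRb-wt came from Esrrb knockout cells given a lentivirus that expresses ERRb, the orphan nuclear receptor that Esrrb encodes. Arrays labelled KO/mock came from knockout mock cells and arrays labelled WT/mock from wild-type mock cells. The labels do not say what the mock treatment was. Every group had been grown in N2B27 medium with LIF and the inhibitors CH99021 and PD0325901, and then had 3 days with the inhibitors and doxycycline, for which the labels list no LIF. Each group held 2 clones with 2 arrays each: 12-1 and 12-3 for KO/ERRb-wt, 8-3 and 8-4 for KO/mock, 5-2 and 5-5 for WT/mock. A difference between groups is therefore also a difference between 2 clones and 2 other clones. Array medians lay between 5.00 and 5.07 on the log2 scale. Of 8 ES cell markers 7 lay above 6, with Nanog highest at 12.16 and Dppa5a lowest at 4.95, while 0 of 7 feeder fibroblast and 0 of 4 neuroectoderm markers did. Of other lineages, 2 of 4 measured mesoderm and definitive endoderm markers (Eomes highest at 6.88), 1 of 6 primitive endoderm markers (Gata4, 6.65) and 1 of 4 trophoblast markers (Cdx2, 6.19) did, and their part in the results was not tested. Esrrb averaged 6.73 ± 0.21 on arrays labelled KO/ERRb-wt, 7.66 ± 0.27 on those labelled KO/mock and 7.38 ± 0.00 on those labelled WT/mock (SD, n = 4 each). The targeted gene thus did not follow the labels, its lesion and the virus's insert are not described in the sources used here, and the groups are called by their labels throughout.

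When a cell has fewer copies of a whole chromosome or a long stretch of one, most genes on it give less RNA by a similar factor, and the genes spread around that shared factor. A gene whose RNA is lowered less than its neighbours is called buffered; feedback on its own transcription or RNA stability is a known way for this to arise. Mouse ES cells in culture are known to gain and lose chromosomes. No DNA was measured in this study, so the copy number of chromosome 14 in these clones, WT/mock clones included, was not tested. All shifts here are relative to WT/mock. Lower levels in the knockout clones and higher levels in the WT/mock clones therefore cannot be told apart, and "lower" and "buffered" are meant relative to WT/mock.

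The measured genes were lower on the knockout arrays together. The median over all 342 chromosome 14 genes was -0.48 for KO/ERRb-wt and -0.41 for KO/mock, each against WT/mock on the log2 scale, which is 71.8% and 75.4% of the WT/mock level. Genes of the other chromosomes had medians of -0.01 and 0.03 (9366 genes). The difference between chromosome 14 and the rest was -0.44, -0.46, -0.47 and -0.46 on the 4 KO/ERRb-wt arrays and -0.43, -0.43, -0.45 and -0.41 on the 4 KO/mock arrays. On the WT/mock arrays it was -0.01, 0.01, 0.00 and 0.00. All 8 knockout arrays lay between -0.47 and -0.41, and the 2 knockout groups overlapped. Both contrasts share the WT/mock arrays, and the genes were chosen from them, so the values against WT/mock are given as a description without a test. In bulk RNA, fewer cells at the full level and less RNA per cell cannot be told apart.

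**Figure D1:**
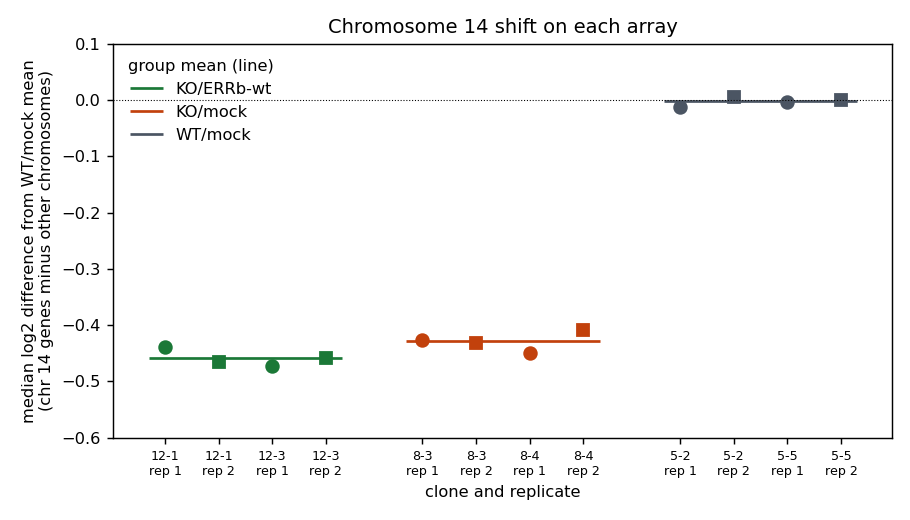
Median log2 difference of the 342 chromosome 14 genes from their WT/mock mean, minus the same median over genes of other chromosomes, for each of 12 arrays (x axis: clone and replicate; points: arrays, with circles for replicate 1 and squares for replicate 2; lines: group means). The KO/ERRb-wt arrays lie between -0.47 and -0.44, the KO/mock arrays between -0.45 and -0.41, and the WT/mock arrays between -0.01 and 0.01.

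Over the 45 genes the median log2 difference was -0.56 for KO/ERRb-wt and -0.46 for KO/mock against WT/mock, and all 45 were below 0 in both. The other 297 chromosome 14 genes had medians of -0.47 and -0.40. All 4 KO/ERRb-wt arrays were below all 4 WT/mock arrays for 43 of the 45 genes, beside 28.2% of all 9761 genes with a mean of at least 6. All 4 KO/mock arrays were below all 4 WT/mock arrays for 42, beside 13.1%. At a limma adjusted p under 0.05, 43 genes were lower for KO/ERRb-wt and 41 for KO/mock, beside 23% and 6.64% of those 9761 genes and 76.1% and 71% of the other chromosome 14 genes. Since the set was drawn from these contrasts, nothing is read from these counts. The genes not passing were Lmo7 and Lgals3 in both contrasts, with Ndrg2 and Uchl3 for KO/mock.

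How far a gene lay from the shared shift is given as its departure, its log2 difference minus the median over the 342 chromosome 14 genes in the same contrast. A gene was placed below the shift when its departure was -0.25 or lower in both contrasts, buffered when it was 0.25 or higher in both, and near the shift when it stayed within 0.15 in both. By this rule 5 of the 45 genes lay below the shift (Uggt2, Mbnl2, Dpysl2, Cdkn3 and Rb1), 1 was buffered (Lgals3), 15 were near it and 24 were in between. Among the other 297 chromosome 14 genes, 32 lay below the shift (10.8%), 40 were buffered (13.5%) and 100 were near it (33.7%). The corresponding shares of the 45 genes were 11.1%, 2.22% and 33.3%. Just inside and outside the limit of -0.25 lay Rb1, with a KO/mock departure of -0.253, and Pcca, with -0.249. The count of buffered genes was 0 without WT/mock clone 5-2 replicate 1 or KO/ERRb-wt clone 12-3 replicate 2.

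**Figure D2:**
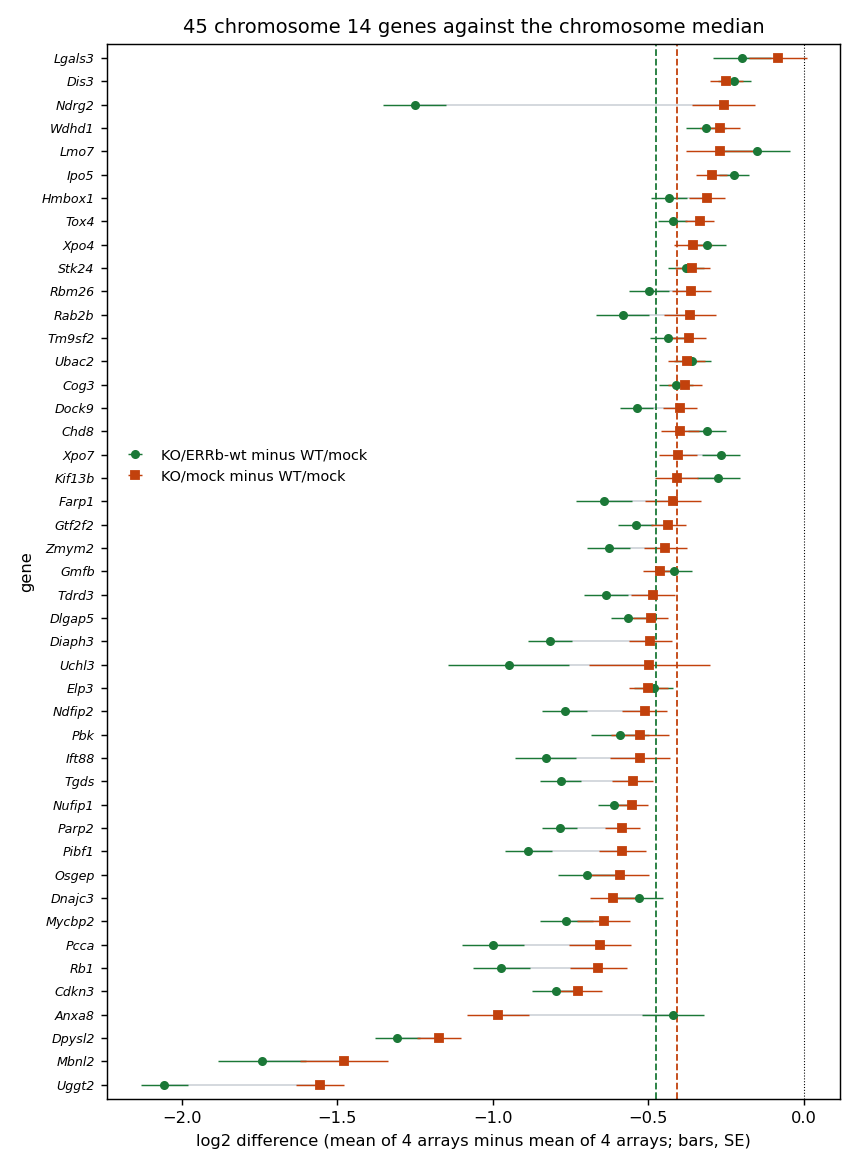
Log2 difference from WT/mock for each of the 45 measured genes (rows) on KO/ERRb-wt arrays (green circles) and KO/mock arrays (orange squares); bars are SE from the limma model with 4 arrays a group, dashed lines the medians of all 342 chromosome 14 genes, -0.48 and -0.41. Uggt2, Mbnl2 and Dpysl2 stand left of all others in the KO/mock contrast, and Lgals3 lies nearest to 0 there.

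Uggt2 encodes a glucosyltransferase that tags misfolded glycoproteins in the endoplasmic reticulum, and it was the lowest of all 342 chromosome 14 genes in both contrasts. Its log2 level was 6.58, 6.50, 6.52 and 6.42 on the KO/ERRb-wt arrays, 6.88, 6.92, 7.11 and 7.10 on the KO/mock arrays, and 8.55, 8.71, 8.52 and 8.46 on the WT/mock arrays. The 3 groups did not overlap. The difference from WT/mock was -2.06 ± 0.08 for KO/ERRb-wt, leaving 24.1% of the WT/mock level, and for KO/mock it was -1.56 ± 0.08, leaving 34% (SE, n = 4). Its departures were -1.55 and -1.60 in clones 12-1 and 12-3, and -1.25 and -1.05 in clones 8-3 and 8-4.

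Mbnl2, a regulator of alternative splicing, is the next measured gene along the chromosome. It read 7.31, 7.39, 7.68 and 7.27 on the KO/ERRb-wt arrays, 7.78, 7.90, 7.48 and 7.55 on the KO/mock arrays, and 9.33, 9.41, 9.02 and 8.86 on the WT/mock arrays. The knockout groups overlapped each other and lay below every WT/mock array. The differences were -1.74 ± 0.14 for KO/ERRb-wt and -1.48 ± 0.14 for KO/mock (SE), and the departures of the 4 knockout clones ranged from -1.34 to -0.91. Within WT/mock, clone 5-2 read higher than clone 5-5 on both arrays. The other 2 probe sets of Mbnl2, at mean levels of 5.52 and 4.54, differed by only -0.16 and -0.51 for KO/ERRb-wt and by -0.18 and -0.50 for KO/mock, so the probe sets disagreed on the size.

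The low values around this pair of neighbours did not form an unbroken run. Upstream, Dnajc3 (the endoplasmic reticulum co-chaperone p58IPK) was at -0.53 for KO/ERRb-wt and -0.61 for KO/mock. Downstream, Rap2a was at -0.61 and -0.55, the nuclear import receptor gene Ipo5 at -0.22 and -0.30, the guanine exchange factor gene Farp1 at -0.64 and -0.42, and the kinase gene Stk24 at -0.38 and -0.36. The next gene, the peptide transporter gene Slc15a1, again read -1.79 and -1.02, followed by Dock9 at -0.54 and -0.40. The 250 bases before the RefSeq start of Uggt2 and Mbnl2 are shown because these adjacent genes had the lowest values in KO/mock. They are from the GRCm38.p6 promoter table (chr14:119099435-119099684, minus strand; chr14:120275419-120275668, plus strand), with CpG dinucleotides in capitals.
Uggt2: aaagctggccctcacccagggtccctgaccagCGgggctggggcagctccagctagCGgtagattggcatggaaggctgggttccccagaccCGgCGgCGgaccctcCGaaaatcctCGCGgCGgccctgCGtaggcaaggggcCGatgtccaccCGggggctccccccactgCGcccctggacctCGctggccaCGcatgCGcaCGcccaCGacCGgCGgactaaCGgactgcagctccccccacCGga
Mbnl2: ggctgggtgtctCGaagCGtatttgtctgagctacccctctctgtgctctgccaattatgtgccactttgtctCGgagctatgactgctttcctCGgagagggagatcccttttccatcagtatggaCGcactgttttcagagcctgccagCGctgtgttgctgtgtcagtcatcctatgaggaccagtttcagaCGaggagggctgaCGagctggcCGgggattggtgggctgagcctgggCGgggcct
The Uggt2 stretch held 22 CpG dinucleotides and the Mbnl2 stretch 10, an observed-to-expected ratio of 0.693 against 0.496. The pair of genes lowest in KO/mock therefore had promoters of unlike base composition.

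Dpysl2, which encodes a tubulin-binding protein of axon growth, read 9.07, 9.15, 8.87 and 8.97 on the KO/ERRb-wt arrays, 9.08, 9.26, 9.13 and 9.13 on the KO/mock arrays, and 10.38, 10.29, 10.28 and 10.34 on the WT/mock arrays. Every knockout array was more than 1 log2 unit below every WT/mock array. The differences were -1.31 ± 0.07 for KO/ERRb-wt and -1.17 ± 0.07 for KO/mock (SE), and the departures of the 4 clones lay between -0.91 and -0.74. Uggt2, Mbnl2 and Dpysl2 were the 3 genes of the set lower by at least 1 in both contrasts, and also the 3 with every knockout clone at -0.25 or lower from the shift. Of the other 297 chromosome 14 genes, 4 were lower by at least 1 in both. Several genes just before Dpysl2 were also low: Clu read -1.05 for KO/ERRb-wt and -1.11 for KO/mock, Ptk2b -0.97 and -0.94, and Trim35 -1.13 and -0.64. Ephx2, between Clu and Ptk2b, read -0.17 and -0.28. The genes just after Dpysl2 lay closer to the shift, with Pnma2 at -0.66 and -0.60 and Ppp2r2a at -0.43 and -0.45.

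Cdkn3 and Rb1, the other genes below the shift, act on the cell cycle. Cdkn3, a phosphatase of cyclin-dependent kinases, read 8.21, 8.32, 8.18 and 8.21 on the KO/ERRb-wt arrays, 8.41, 8.38, 8.12 and 8.31 on the KO/mock arrays, and 9.02, 9.15, 9.04 and 8.91 on the WT/mock arrays. Its departure was -0.32 in each contrast, and clone 8-3 alone stayed above -0.25, at -0.23. Rb1, the retinoblastoma protein gene, which restrains E2F factors, read 8.35, 8.34, 8.12 and 8.16 on the KO/ERRb-wt arrays, 8.63, 8.65, 8.38 and 8.55 on the KO/mock arrays, and 9.37, 9.32, 9.10 and 9.07 on the WT/mock arrays. Its departure was -0.50 for KO/ERRb-wt and -0.25 for KO/mock. A second, dim Rb1 probe set (mean 4.31) differed from WT/mock by -0.83 for KO/ERRb-wt and by only -0.10 for KO/mock. A probe set shared by Rb1 and Lpar6 (mean 8.44) differed by -0.70 and -0.44. Another shared by them (mean 5.48) differed by -0.29 and -0.07. With all of a gene's own probe sets averaged, Rb1 was not among the genes below the shift. Leaving out any single array of WT/mock clone 5-2 or of KO/mock clone 8-4 took Rb1 out of this group.

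Lgals3, which encodes the galactoside-binding lectin galectin-3, was the single buffered gene. It read 6.51, 6.22, 6.38 and 6.50 on the KO/ERRb-wt arrays, 6.40, 6.43, 6.70 and 6.54 on the KO/mock arrays, and 6.50, 6.53, 6.63 and 6.75 on the WT/mock arrays. All 3 groups overlapped. The differences from WT/mock were -0.20 ± 0.09 for KO/ERRb-wt and -0.08 ± 0.09 for KO/mock (SE). It was also one of the dimmest of the 45 genes. Among other chromosome 14 genes, the 40 buffered ones had a median level of 6.80, with 24 below 7, while the 100 near the shift had a median of 8.72. The 32 below the shift had a median of 7.62, with 11 below 7. Genes far from the shift on either side were thus dimmer than those near it. The part of dimness in the buffering of Lgals3 was not tested.

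Genes at the shift itself included Tm9sf2, Rbm26, Gmfb and Dock9, whose larger departure of the 2 contrasts was smallest. Tm9sf2, an endosomal and Golgi membrane protein gene, read 10.51, 10.53, 10.40 and 10.56 on the KO/ERRb-wt arrays, 10.59, 10.60, 10.49 and 10.60 on the KO/mock arrays, and 10.91, 10.94, 10.92 and 10.98 on the WT/mock arrays. Gmfb, a regulator of actin branches, read 9.24, 9.15, 9.19 and 9.21 on the KO/ERRb-wt arrays, 9.16, 9.23, 9.04 and 9.19 on the KO/mock arrays, and 9.57, 9.64, 9.64 and 9.61 on the WT/mock arrays. For both genes the knockout groups overlapped each other and not WT/mock. Rbm26, which encodes an RNA-binding protein, differed from WT/mock by -0.50 for KO/ERRb-wt (arrays 10.13, 10.20, 10.09 and 10.00) and by -0.36 for KO/mock (arrays 10.20, 10.20, 10.21 and 10.36), with WT/mock arrays at 10.61, 10.65, 10.62 and 10.54. Dock9, an activator of the small GTPase Cdc42, read 8.18, 8.27, 8.22 and 8.17 on the KO/ERRb-wt arrays, 8.31, 8.35, 8.32 and 8.42 on the KO/mock arrays, and 8.81, 8.72, 8.77 and 8.69 on the WT/mock arrays. Its groups did not overlap. The departures of the 4 knockout clones ran from 0.00 to 0.06 for Tm9sf2, from -0.06 to 0.08 for Rbm26, from -0.10 to 0.08 for Gmfb and from -0.06 to 0.02 for Dock9.

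By role, the nuclear transport receptors had the group median closest to WT/mock for KO/ERRb-wt, at -0.27. For KO/mock their median was -0.36, and that of the 2 measured signalling genes, Ndrg2 and Stk24, was nearer to 0 at -0.31. Ipo5, Xpo4 and Xpo7, which carry proteins through nuclear pores, were at -0.22, -0.31 and -0.27 for KO/ERRb-wt and at -0.30, -0.36 and -0.41 for KO/mock. Their departures were 0.25, 0.16 and 0.21 for KO/ERRb-wt and 0.11, 0.05 and 0.00 for KO/mock, so all 3 were nearer to 0 than the shift in KO/ERRb-wt. In the group for folding in the endoplasmic reticulum and membrane traffic, 7 of 7 listed genes were measured, with medians of -0.53 and -0.38. Apart from Uggt2 their differences ran from -0.77 (Ndfip2, an adaptor of Nedd4-family ubiquitin ligases) to -0.36 (Ubac2) for KO/ERRb-wt, and from -0.61 (Dnajc3) to -0.37 (Rab2b and Tm9sf2) for KO/mock. Cog3, a subunit of the Golgi tethering complex, was at -0.41 and -0.38.

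The RNA-processing genes (7 of 8 listed measured) had medians of -0.61 for KO/ERRb-wt and -0.50 for KO/mock. Dis3, the nuclease of the RNA exosome, was closest to WT/mock at -0.22 and -0.25. The tRNA modification genes Elp3 and Osgep were at -0.48 and -0.50, and at -0.70 and -0.59. Nufip1 was at -0.61 and -0.55 and the methylarginine reader gene Tdrd3 at -0.64 and -0.49. Among the transcription and chromatin genes (6 of 7), the chromatin remodeller gene Chd8 was at -0.31 and -0.40, Tox4 at -0.42 and -0.33 and Hmbox1 at -0.43 and -0.31. The general transcription factor gene Gtf2f2 was at -0.54 and -0.44 and the zinc finger gene Zmym2 at -0.63 and -0.45. Apart from Rb1, the departures in this group ran from -0.15 to 0.17.

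Genes of DNA repair and cell division (7 of 10) had medians of -0.79 for KO/ERRb-wt and -0.53 for KO/mock. The replisome gene Wdhd1 was the highest, at -0.31 and -0.27. The centrosome and cilium genes Pibf1 and Ift88 were at -0.89 and -0.58, and at -0.83 and -0.53. Parp2, a sensor of DNA breaks, was at -0.79 and -0.58, the spindle gene Dlgap5 at -0.56 and -0.49 and the mitotic kinase gene Pbk at -0.59 and -0.53. The 4 measured genes of metabolism and protein turnover had medians of -0.87 and -0.60, and all 4 had departures under 0 in both contrasts without meeting the limit of -0.25 in KO/mock. Among these, Pcca, a subunit of propionyl-CoA carboxylase, departed from the shift by -0.52 and -0.25. The differences from WT/mock were -0.95 and -0.50 for the ubiquitin hydrolase gene Uchl3, -0.78 and -0.55 for Tgds and -0.76 and -0.64 for the ubiquitin ligase gene Mycbp2. Of the cytoskeletal genes not yet described, Lmo7 was at -0.15 and -0.27 and the kinesin gene Kif13b at -0.28 and -0.41.

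The 8 genes below the level limit were given no place in these groups. Their differences ran from -1.03 to 0.19 for KO/ERRb-wt and from -0.76 to 0.19 for KO/mock, with medians of -0.07 and -0.19. Fzd3, a Wnt receptor gene, had the lowest difference in both. Ednrb, the endothelin receptor, was above 0 in both contrasts, at 0.15 and 0.19, at a mean level of 4.81. The level of a probe set this dim cannot be set against background here.

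Departures were wider on KO/ERRb-wt arrays. The SD of the differences from WT/mock over the 45 genes was 0.38 for KO/ERRb-wt and 0.29 for KO/mock, and over the 9366 genes of other chromosomes it was 0.33 and 0.20. The wider spread was therefore present on the other chromosomes too. With KO/ERRb-wt alone, 10 further genes had a departure of -0.25 or lower and 3 (Ipo5, Dis3 and Lmo7) one of 0.25 or higher, while with KO/mock alone Anxa8 was the single further gene, at -0.58. Over all 342 chromosome 14 genes the SD in KO/ERRb-wt was 0.48 at mean levels of 6 to 7 (77 genes) and 0.21 at 10 or more (47 genes), and in KO/mock 0.36 and 0.14. Across the 45 genes, departure and mean level had a Spearman rho of 0.36 for KO/ERRb-wt and 0.27 for KO/mock. Across the 342 it was -0.02 and -0.06. These points share arrays, and dim genes carry a larger error, so they are given as a description.

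The shift ran along the whole chromosome. With the 342 genes in RefSeq order and cut into 5 consecutive blocks of 68 or 69 genes, block medians for KO/ERRb-wt were -0.45, -0.43, -0.46, -0.46 and -0.54, and for KO/mock -0.41, -0.37, -0.37, -0.43 and -0.43. No block was near 0. The measured genes of the set were unevenly placed, with 0, 8, 6, 7 and 24 in the 5 blocks, so they mostly describe the last block, from Fndc3a to Tmtc4. Set against the median of its own block, Rb1 was no longer below the shift, and no gene was buffered.

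**Figure D3:**
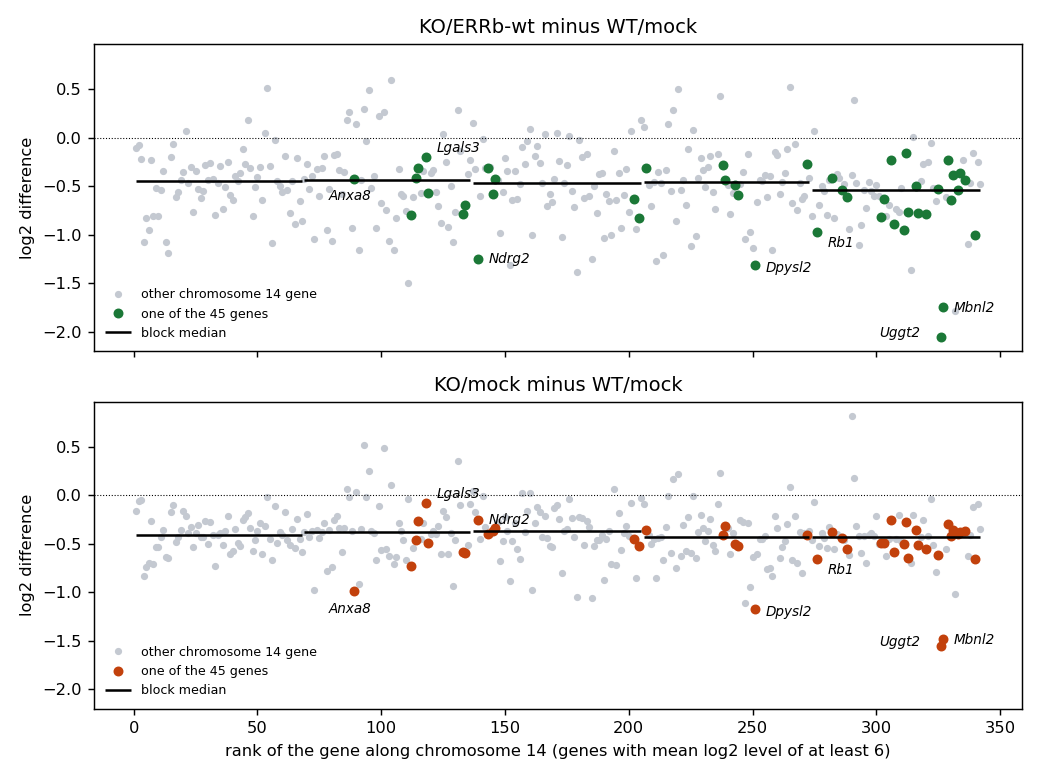
Log2 difference from WT/mock for 342 chromosome 14 genes in order along the chromosome (x axis: gene rank) on KO/ERRb-wt arrays (upper panel) and KO/mock arrays (lower panel). Coloured points are the 45 measured genes, grey points the other 297, and black lines the medians of 5 consecutive blocks, which lie between -0.54 and -0.43 in the upper panel and between -0.43 and -0.37 in the lower.

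KO/ERRb-wt against KO/mock was tested, although this contrast is the difference of the 2 contrasts that the set was drawn from. Its tests are therefore not independent of the choice of genes, and earlier results of it were known. The adjusted p values of single genes below are given as a description and are no independent evidence for these genes. Both groups carry the shift, and chromosome 14 as a whole differed by -0.06 and the other chromosomes by -0.04. Of the 45 genes, 4 differed at an adjusted p under 0.05 (limma, Benjamini-Hochberg over 41345 probe sets), 3 lower and 1 higher, or 8.89%. Among all genes with a mean of at least 6 the share was 8.3% (6.53% lower and 1.77% higher), and among the other chromosome 14 genes 9.43% (3.21% of all probe sets). The number called in the set was thus close to the background. The median over the 45 was -0.10, against -0.06 for the other chromosome 14 genes and 0.01 for all probe sets. The 4 KO/ERRb-wt arrays lay below the 4 KO/mock arrays for 11 of the genes and above them for 2, beside 19.2% and 8.79% of genes with a mean of at least 6.

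Ndrg2, which encodes a stress-responsive member of the Myc-downregulated NDRG family, fell on KO/ERRb-wt arrays. It read 6.37, 6.18, 6.18 and 6.61 there, 7.36, 7.42, 7.15 and 7.38 on KO/mock arrays, and 7.66, 7.57, 7.52 and 7.59 on WT/mock arrays. No 2 groups overlapped. KO/ERRb-wt minus KO/mock was -0.99 ± 0.10 (SE; limma, adjusted p = 0.000797; lower in 4 of 4 arrays), or 50.2% of the KO/mock level. Its departure from the shift was -0.85 and -0.69 in clones 12-1 and 12-3, but 0.21 and 0.08 in clones 8-3 and 8-4. For KO/mock as a group the departure was 0.149, within 0.15 of the shift. Ndrg2 thus lay close to the shift in KO/mock and below it in KO/ERRb-wt. The genes on either side, Zfp219 and Mettl17, each differed by -0.15 between KO/ERRb-wt and KO/mock and were not called.

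Uggt2, lowest against WT/mock, was lower still on KO/ERRb-wt arrays than on KO/mock arrays. The difference was -0.50 ± 0.08 (SE, limma, adjusted p = 0.00687, 4 of 4 arrays lower). It is the gap between both contrasts in which Uggt2 was lowest, so its p value is not an independent test. Diaph3, a formin that nucleates actin filaments, read 8.33, 8.29, 8.24 and 8.18 on KO/ERRb-wt arrays, 8.72, 8.59, 8.41 and 8.61 on KO/mock arrays, and 9.10, 9.07, 9.04 and 9.09 on WT/mock arrays. The groups did not overlap, and KO/ERRb-wt minus KO/mock was -0.32 ± 0.07 (SE; limma, adjusted p = 0.0303). Leaving out any of 7 single arrays ended the Diaph3 call, with limma adjusted p up to 0.0824. They were WT/mock clone 5-2 replicate 1, both arrays of clone 8-3, replicate 2 of clones 8-4 and 12-1, and both arrays of clone 12-3. Centring each array on its chromosome 14 median also ended it (-0.25, adjusted p = 0.0878), as did quantile normalization (-0.27, adjusted p = 0.0534), a fit of only the 2 groups compared (-0.32, adjusted p = 0.0755) and leaving out clone 12-1 (-0.37, adjusted p = 0.0603).

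Anxa8, a calcium-dependent phospholipid-binding annexin, was the single gene of the 45 called higher on KO/ERRb-wt arrays. It read 6.39, 6.25, 6.46 and 6.32 there, 5.63, 5.78, 5.81 and 5.93 on KO/mock arrays, and 7.03, 6.81, 6.69 and 6.57 on WT/mock arrays. The KO/ERRb-wt arrays lay wholly between the other groups. KO/ERRb-wt minus KO/mock was 0.56 ± 0.10 (SE; limma, adjusted p = 0.0132; higher in 4 of 4 arrays). All 4 KO/mock arrays read under 6, where a level cannot be set against background here, so the size of this difference is uncertain. Kif13b was the other gene with all 4 KO/ERRb-wt arrays above all 4 KO/mock arrays, at 0.13 ± 0.07 (SE; limma, adjusted p = 0.327), named after its values were seen. The departure of Anxa8 was 0.06 in KO/ERRb-wt and -0.58 in KO/mock, so on KO/ERRb-wt arrays Anxa8 stood at the shared shift.

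**Figure D4:**
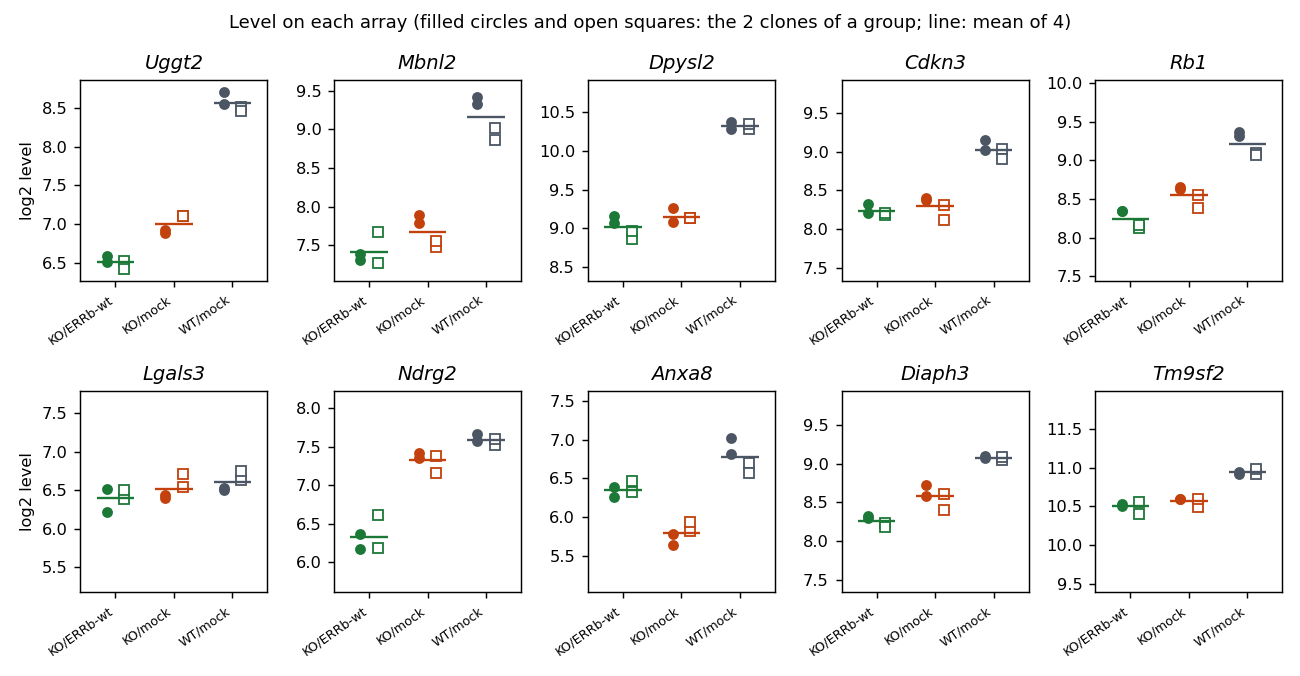
Log2 level of 10 chromosome 14 genes on each of 12 arrays, by group (filled circles and open squares: the 2 clones of a group; lines: means of 4 arrays; every panel spans the same range of log2 units). Ndrg2 is about 1 log2 unit lower on KO/ERRb-wt arrays (mean 6.33) than on KO/mock arrays (mean 7.33), Anxa8 lies between the other groups there (means 6.36, 5.79 and 6.78 for KO/ERRb-wt, KO/mock and WT/mock), and Lgals3 overlaps in all groups.

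On averages of the 2 arrays of a clone, limma called 0 probe sets and 0 of the 45 genes between KO/ERRb-wt and KO/mock (6124 probe sets and 10 of the genes at an unadjusted p under 0.05), with adjusted p of 0.0932 for Ndrg2, 0.182 for Uggt2, 0.184 for Anxa8 and 0.228 for Diaph3. Without clone 8-3, 2 genes were called, and the calls of Anxa8 and Diaph3 ended. Without clone 12-3, Ndrg2 alone was called. With only probe sets of mean at least 6 tested, 10 genes were called (22.2%, beside 15.8% of genes at that level). These were the 4 above and Pibf1, Parp2, Ndfip2, Tgds, Pcca and Rb1, these 6 with differences from -0.34 to -0.20.

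The 2 clones of a label did not differ detectably in any of the 45 genes. Limma called 0 of 45 between clones 12-3 and 12-1, between clones 8-4 and 8-3 and between clones 5-5 and 5-2, beside 0.0169%, 0.00484% and 0% of all probe sets; at an unadjusted p under 0.05 the counts were 3, 3 and 5. Clone differences over the 45 genes had an SD of 0.14, 0.12 and 0.14, against 0.22 for KO/ERRb-wt minus KO/mock. The clone differences rest on means of 2 arrays and the group difference on means of 4, so these SDs are not directly comparable. The widest were those of Uchl3 between clones 12-3 and 12-1, at -0.63, and of Mbnl2 between clones 5-5 and 5-2, at -0.43. With 2 arrays a clone, small differences would not be seen.

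The promoters of the 45 genes were searched for the letters that ERR receptors are known to bind. RefSeq promoter entries of GRCm38.p6 were matched by symbol for 33 of the 45 genes, with 41 starts. Dpysl2 and Rb1, both below the shift, were among the genes without a matched entry. The 250 bases before each matched start were read on both strands. TCAAGGTCA was in 0 of 41, against 0.387% of all 32851 listed promoters and 0.307% of 1304 promoters of other chromosome 14 genes. The shorter AAGGTCA, which the longer motif contains, was in 1 of 41 (2.44%), that of Ubac2. Its share was 4.08% of all and 3.22% of the other chromosome 14 promoters. At shares this low, 41 promoters are too few to show a lack of either motif. By composition, 32 of the 41 stretches (78%) had a CpG observed-to-expected ratio of at least 0.6, against 64.4% for other chromosome 14 genes with a mean of at least 6. Ndrg2 and Anxa8 are shown next because they moved in opposite directions between KO/ERRb-wt and KO/mock (chr14:51914005-51914254, minus strand, the most upstream of 3 listed starts; chr14:34085729-34085978, plus strand), with CpG dinucleotides in capitals.
Ndrg2: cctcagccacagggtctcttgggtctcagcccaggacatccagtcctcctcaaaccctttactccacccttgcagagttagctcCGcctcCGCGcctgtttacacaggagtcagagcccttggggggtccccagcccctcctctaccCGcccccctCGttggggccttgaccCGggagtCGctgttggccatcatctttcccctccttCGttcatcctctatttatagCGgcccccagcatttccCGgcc
Anxa8: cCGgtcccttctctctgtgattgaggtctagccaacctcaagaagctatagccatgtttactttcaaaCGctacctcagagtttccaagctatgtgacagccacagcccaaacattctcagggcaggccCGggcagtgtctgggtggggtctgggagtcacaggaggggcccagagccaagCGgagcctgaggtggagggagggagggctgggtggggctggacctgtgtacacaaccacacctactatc
The Ndrg2 stretch held 10 CpG dinucleotides and the Anxa8 stretch 4, and neither held AAGGTCA on either strand.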

How the data were processed

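Per the labels, the 12 samples were measured on MoGene 2.0 ST arrays from Affymetrix, 1 array a sample. The authors deposited log2 expression values; per the submitters' processing notes they used RMA and Affymetrix Expression Console, named without versions. Since RMA gives all arrays a common distribution, a shift of most genes at once cannot be seen, whereas that of 1 chromosome can. No scanner files were analysed here, dim probe sets have no background to be set against, and the number of arrays limits the precision.

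Gene names came from the platform annotation and chromosome order from RefSeq (GRCm38.p6). All 41345 probe sets on 12 arrays entered a limma model of the 3 groups (limma 3.58.1, statmod 1.5.0, R 4.3.3) and a random block for clone, whose consensus correlation was 0.0286. Clones were compared in a model of 6 clones. Tests were two-sided, called at an adjusted p under 0.05 (Benjamini-Hochberg over all probe sets). The pipeline was tested on simulated data. The labels call arrays of a clone biological replicates, which is all that is known of their independence. The genes and lists were chosen with earlier results of these data known. The rule for values by array took up to 6 genes below the shift (5 met it) and up to 6 buffered genes (1 met it), genes called between KO/ERRb-wt and KO/mock (4) or between clones (0), and the 4 nearest the shift; roles and markers follow lists. Rap2a, Slc15a1, Clu, Ptk2b, Trim35, Ephx2, Pnma2, Ppp2r2a, Zfp219 and Mettl17 were named as neighbours after their values were seen.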

Additional observations from a re-analysis of the deposited data

Results flagged for a closer look

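On KO/mock clone 8-4 replicate 1, Tm9sf2 read 10.49, while the other 3 KO/mock arrays lay between 10.59 and 10.60; the distance to the nearest array was 0.914 of the group's range. On KO/mock clone 8-4 replicate 2, Rbm26 read 10.36, against 10.20 to 10.21 on the other 3, with a ratio of 0.919. Both exceeded Dixon's 95% critical value for groups of 4. Of 42 groups of 4 arrays examined, 2 passed it, and chance alone flags about 1 in 20. Both differences are small in log2 units and belong to different arrays of 1 clone.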

How the results depend on the processing

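The count of probe sets called between KO/ERRb-wt and KO/mock, 1329 as reported, was 0 with clone averages, 777 with only the 2 groups compared, and 145, 761 and 333 without clones 8-3, 12-1 and 12-3. Leaving out single arrays gave 544 to 1399. The count of the 45 genes called, 4 as reported, was 0 with clone averages, 10 with dim probe sets left out, 2 without clone 8-3, 1 without clone 12-3, and 3 to 6 without single arrays. The fewer clones or tests in these settings are part of their construction. The replicate block (replicate number within the clone) gave 973 probe sets and 4 genes. The replicate numbers mark no shared culture, and deviations of same-numbered arrays correlated between -0.0133 and 0.141 over 12 pairs of clones, with 1 over 0.1. With no clone block, a trended robust prior, array weights, median centring, quantile normalization or centring on chromosome 14, 3 to 6 of the genes were called. No called gene changed sign under any setting tried.

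The chromosome 14 shift, -0.47 for KO/ERRb-wt and -0.43 for KO/mock relative to the other chromosomes, lay between -0.48 and -0.46 and between -0.45 and -0.42 without single arrays. It was -0.42 and -0.38 with a level minimum of 5 and -0.50 and -0.45 with one of 7. The 5 genes below the shift became 8 and the buffered gene 2 (Lats2 and Kctd12, both dim) with a level minimum of 5; 3 genes lay below and 0 were buffered with a class limit of 0.4. The buffered count was also 0 with a level minimum of 7, with the shift of the position block, and without clones 5-2, 8-4 or 12-3. Without single arrays the counts ran from 4 to 7 and from 0 to 1. Uggt2, Mbnl2 and Dpysl2 lay below the shift under every setting tried. The cause of these changes was not tested.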
